A study of Mus musculus with 18 samples.

Results

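The genes described are the Wnt ligands, their Frizzled receptors and the secreted proteins that block or boost them, measured in visceral fat (white adipose tissue, WAT) of mice. They were taken by name from the array's gene symbols: every gene whose symbol begins with Wnt, Fzd, Sfrp or Dkk and a digit, and in addition Wif1, Frzb, Lrp5, Lrp6, Rspo1 to Rspo4, Axin2 and Porcn, with Sfrp5 left out. This gave 47 of the 19938 genes measured, on 48 probe sets, since Wnt4 alone had 2 and the one with the higher mean was used. They are 19 Wnt ligands, 10 Frizzled receptors, the co-receptors Lrp5 and Lrp6, 5 antagonists that bind Wnt (Sfrp1, Sfrp2, Sfrp4, Frzb and Wif1), 4 Dickkopf proteins, 4 R-spondins, Axin2 and Porcn, and Fzd10os, a transcript opposite Fzd10 whose symbol also matched.

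The study asked how bezafibrate (BEZ), a fibrate drug that activates PPAR receptors, changes metabolism in diabetic mice. RNA from the fat of 18 mice was hybridised, each mouse to its own Affymetrix Mouse Gene 1.0 ST array. All mice were wildtype males of the strain C57BL/6N at 5 to 6 months of age. The 7 Con, SD mice ate standard diet (SD) and, according to the labels, had mock injections of citrate buffer, whereas the study's methods call the controls untreated. The 6 STZ, SD mice had been injected i.p. with streptozotocin (STZ), a toxin of the insulin-producing beta cells, at 65 mg/kg on 5 consecutive days when 10 to 16 weeks old, and ate standard diet. The 5 STZ, BEZ mice had the same injections and ate chow with BEZ at 0.25% or 0.5% (w/w) for 8 weeks, starting 2 weeks after STZ. The labels do not say which mouse received which dose of BEZ. These doses are those of the labels, whereas the study's methods give another dose of STZ and only the higher concentration of BEZ. STZ diabetes is a model of lost insulin secretion. Nondiabetic mice given BEZ were not analysed here.

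Wnt proteins are secreted lipid-modified ligands that bind a Frizzled receptor together with Lrp5 or Lrp6, which stabilises β-catenin and lets it act with TCF/LEF factors on target genes such as Axin2. Sfrp proteins, Frzb and Wif1 hold Wnt away from its receptor, most Dickkopf proteins block Lrp5 and Lrp6, and R-spondins strengthen the signal by keeping receptors on the cell surface. In fat, canonical Wnt signalling is known as a brake on the conversion of progenitors into adipocytes.

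Values are log2 signals, so a difference of 1 is a doubling, and signals of different probe sets were not compared. Calls were made in limma at an adjusted p under 0.10 (Benjamini-Hochberg over all 19938 genes). Array medians lay between 6.76 and 6.87, and no 2 arrays correlated above 0.991. The mean of 12 white adipocyte genes was 11.27 or higher on every array but STZ, SD replicate 6, where it was 10.10. Adipoq (adiponectin) was 11.03 or higher on every array. Some arrays also carried genes of neighbouring organs. The mean of 18 pancreas genes was at most 6.10 in Con, SD, but 12.89 in STZ, SD replicate 6 and 8.42 to 10.85 in STZ, BEZ replicates 1 to 4. The mean of 17 epididymis and testis genes was above 10 in Con, SD replicates 3 and 5 and STZ, SD replicate 3. For 14 skeletal muscle genes the mean spanned 6.68 to 8.50 among controls, while diabetic mice on standard diet reached at most 6.70. All 14 had a negative difference in STZ, SD vs. Con, SD, and 8 were called (57.1%, against 10.3% of all genes). Muscle signal thus differed between these groups. Differences of the genes the results turn on are also given without the arrays with pancreas signal and without those with epididymis signal. No set of arrays was left out for muscle signal, which entered 1 fit as a covariate with the pancreas and epididymis lists.

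In STZ, SD vs. Con, SD, 3 of the 47 genes rose and 1 fell. The ligand Wnt2b, the R-spondin Rspo1 and the Dickkopf family member Dkk3 were higher in diabetic fat, and the receptor Fzd4 was lower. These 4 are 8.51% of the family, whereas 10.3% of all genes were called (5.82% higher and 4.52% lower), so the share called was no larger than that among all genes. At an unadjusted p under 0.05 there were 7 of the 47, against 20.3% of all genes. The median difference was -0.04 over the 47 genes and -0.03 over all genes.

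**Figure D1:**
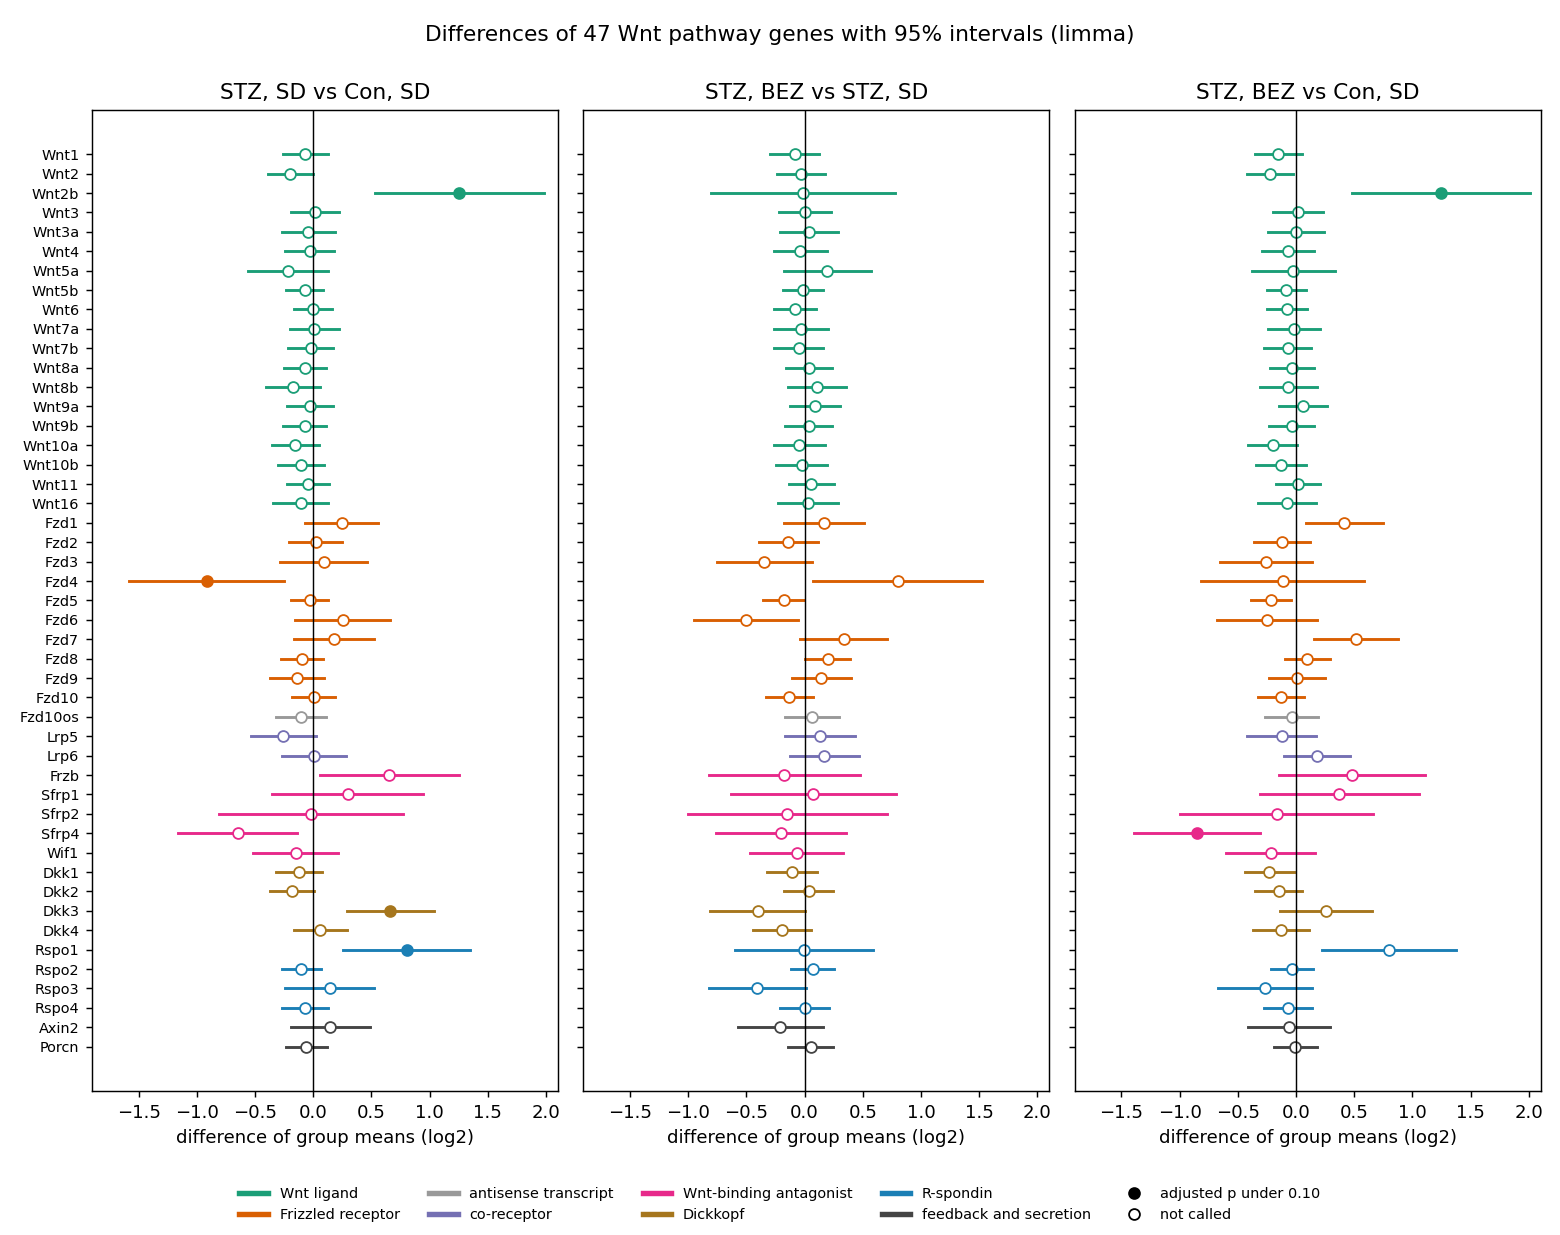
Difference of group means (log2, x axis) of the 47 genes (y axis) in the 3 comparisons, with 95% intervals from limma; colours give the role of each gene, and filled points are genes called at an adjusted p under 0.10. Most points lie near 0 with narrow intervals, and the called genes are Wnt2b, Fzd4, Dkk3 and Rspo1 in STZ, SD vs. Con, SD and Wnt2b and Sfrp4 in STZ, BEZ vs. Con, SD.

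Of the 19 ligands, Wnt2b was the only one called. Wnt2b is a canonical ligand known from mesenchymal and mesothelial tissue. Its signal ran from 7.03 through a median of 7.67 to 8.27 in Con, SD and from 7.89 through 8.94 to 10.03 in STZ, SD. The STZ, BEZ mice had 8.59, 9.11, 7.87, 9.09 and 9.61. STZ, SD replicates 1, 2, 4 and 5 lay above every control, while replicates 3 and 6 lay within the control range. Means were 7.61 ± 0.49 (SD, n = 7) and 8.87 ± 0.83 (n = 6), a difference of 1.26 (SE 0.34, 95% interval 0.53 to 1.98, 2.39-fold, limma adjusted p = 0.0422). All 6 diabetic mice were above the control mean. With STZ, SD replicate 2 left out the adjusted p was 0.103, and without replicate 4 the gene was not called either; it was called in the other 16 of 18 such fits.

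Rspo1 is the founding member of the R-spondins. It ranged from 7.75 through 8.21 to 8.96 in Con, SD, from 8.10 through 9.21 to 10.04 in STZ, SD, and was 9.44, 9.32, 8.91, 9.07 and 9.19 in STZ, BEZ. Every STZ, SD mouse but replicate 6 was above the highest control. The mean moved from 8.38 ± 0.51 to 9.19 ± 0.63, a difference of 0.80 (SE 0.26, 95% interval 0.26 to 1.35, limma adjusted p = 0.0766). This call was less firm. It was made in 10 of the 18 fits with 1 array left out, and it was lost without Con, SD replicate 1, 2, 5 or 7 or STZ, SD replicate 1, 2, 4 or 5 (highest adjusted p 0.182, without STZ, SD replicate 4). Without the 5 arrays with pancreas signal the difference of Rspo1 was 1.02 (adjusted p = 0.0415) and that of Wnt2b 1.43 (adjusted p = 0.0396). Without the 3 arrays with epididymis signal they were 0.81 (adjusted p = 0.118, not called) and 1.37 (adjusted p = 0.0416). The other R-spondins were not called, with differences of 0.14 for Rspo3, -0.10 for Rspo2 and -0.07 for Rspo4.

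Dkk3 carries the Dickkopf name but, unlike Dkk1, is not known as a potent blocker of Lrp5 and Lrp6. It was 6.10 to 6.62 in Con, SD (median 6.30) and 6.65 to 7.78 in STZ, SD (median 6.76). The STZ, BEZ mice had 6.80, 6.70, 6.12, 6.47 and 6.92. It was the 1 gene of the 47 whose STZ, SD and Con, SD values did not overlap, which was true of 1.62% of all genes. STZ, SD replicates 2 and 4, at 7.40 and 7.78, stood above the other 4 diabetic mice, which lay close to the highest control. The difference was 0.66 (6.34 ± 0.18 to 7.01 ± 0.47, SE 0.18, 95% interval 0.29 to 1.04, limma adjusted p = 0.0383), and the call held in all 18 fits with 1 array left out (highest adjusted p 0.0987), without the arrays with pancreas signal (0.73, adjusted p = 0.0487) and without those with epididymis signal (0.68, adjusted p = 0.0695). Dkk1, Dkk2 and Dkk4 were not called, at -0.12, -0.18 and 0.06.

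Fzd4, the receptor for Norrin as well as for Wnt ligands, was the 1 called gene that was lower. It ran from 10.41 through 11.34 to 11.52 in Con, SD, from 8.91 through 10.14 to 11.55 in STZ, SD, and was 10.93, 10.90, 11.25, 11.13 and 10.70 in STZ, BEZ. The diabetic mice were spread widely: replicate 5 had the highest signal of all 18 arrays, replicate 1 lay within the control range, and replicates 2, 3, 4 and 6 lay below it. The means were 11.10 ± 0.43 and 10.18 ± 0.92, so that Fzd4 fell by 0.91 (SE 0.32, 95% interval -1.58 to -0.25, limma adjusted p = 0.0981). This adjusted p was just under the threshold, and the call was made in 4 of the 18 fits with 1 array left out, those without Con, SD replicate 1 or 5 or STZ, SD replicate 1 or 5 (highest adjusted p of the others 0.186, without STZ, SD replicate 4). Without the arrays with pancreas signal the difference was -0.66 (adjusted p = 0.251), and without those with epididymis signal it was -0.99 (adjusted p = 0.104).

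**Figure D2:**
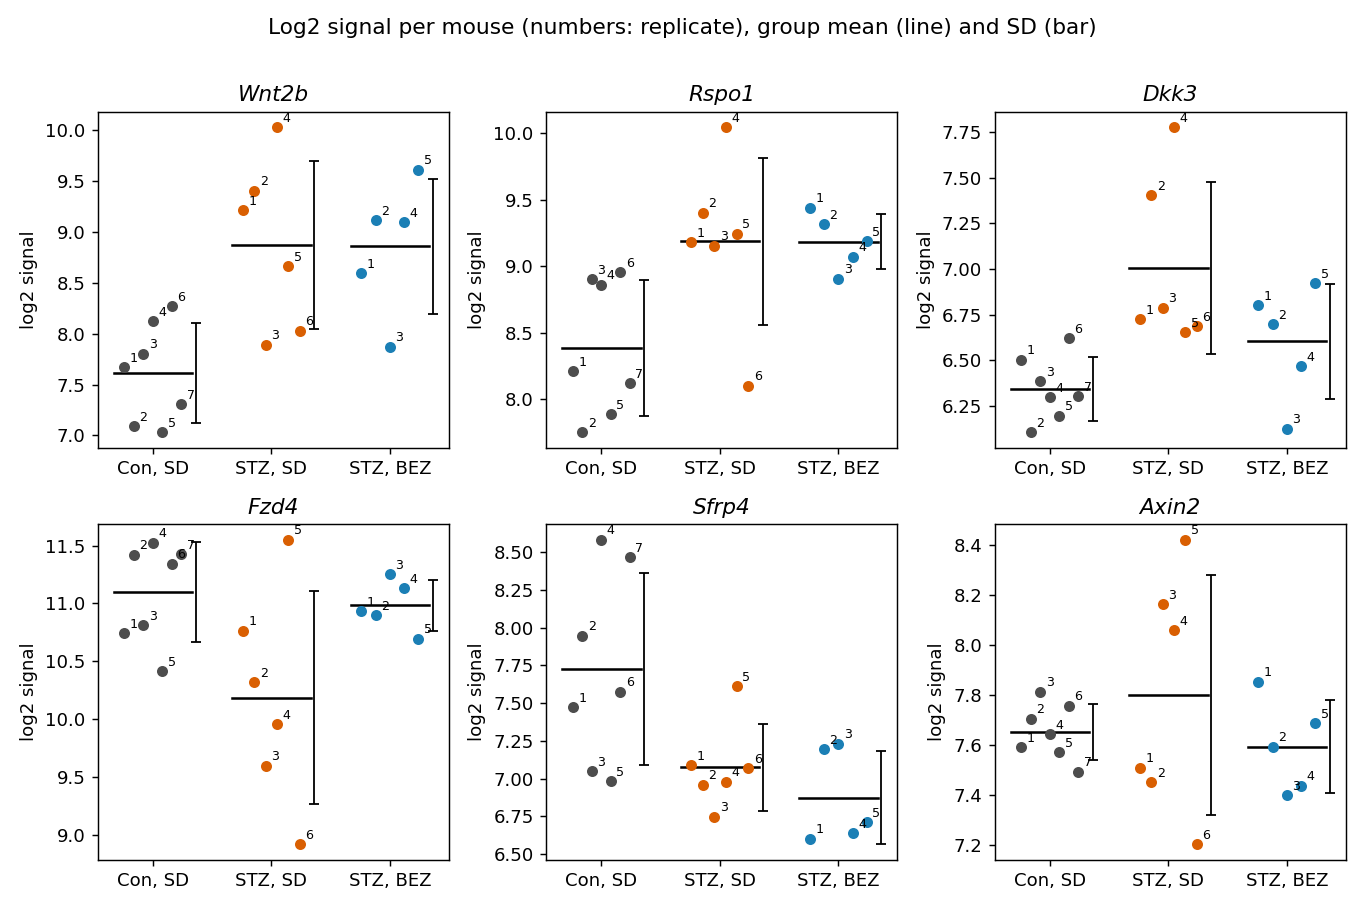
Log2 signal (y axis) of Wnt2b, Rspo1, Dkk3, Fzd4, Sfrp4 and Axin2 in each mouse by group (x axis); numbers are replicates, lines are group means and bars are the SD. The group means of Wnt2b and Rspo1 are higher in both STZ groups than in Con, SD, with some STZ mice within the control range. Fzd4 is spread from 8.91 to 11.55 in STZ, SD, and Axin2 overlaps in all groups.

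The promoters of 3 of these genes are shown because these genes were called and their start sites are in the RefSeq table used (GRCm38.p6, 250 bases before to 50 after the start). Capitals mark the CCAAT box (CCAAT) and the GC box (GGGCGG) on either strand, with neighbouring GC boxes overlapping in places. They lie at chr3:104961660-104961959 on the minus strand (Wnt2b), chr4:124986180-124986479 on the plus strand (Rspo1) and chr7:89404116-89404415 on the plus strand (Fzd4).
Wnt2b: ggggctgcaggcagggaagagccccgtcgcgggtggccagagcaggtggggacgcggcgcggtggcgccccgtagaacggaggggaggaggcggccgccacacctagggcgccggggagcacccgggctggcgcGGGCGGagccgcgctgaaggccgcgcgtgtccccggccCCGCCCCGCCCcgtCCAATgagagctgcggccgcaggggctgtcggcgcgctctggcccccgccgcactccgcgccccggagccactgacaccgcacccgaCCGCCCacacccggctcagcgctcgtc
Rspo1: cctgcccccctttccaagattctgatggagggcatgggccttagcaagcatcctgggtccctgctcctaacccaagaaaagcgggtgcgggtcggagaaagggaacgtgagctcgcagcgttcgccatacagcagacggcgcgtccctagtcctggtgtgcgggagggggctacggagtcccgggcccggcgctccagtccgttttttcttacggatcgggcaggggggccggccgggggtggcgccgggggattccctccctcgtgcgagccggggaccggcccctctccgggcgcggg
Fzd4: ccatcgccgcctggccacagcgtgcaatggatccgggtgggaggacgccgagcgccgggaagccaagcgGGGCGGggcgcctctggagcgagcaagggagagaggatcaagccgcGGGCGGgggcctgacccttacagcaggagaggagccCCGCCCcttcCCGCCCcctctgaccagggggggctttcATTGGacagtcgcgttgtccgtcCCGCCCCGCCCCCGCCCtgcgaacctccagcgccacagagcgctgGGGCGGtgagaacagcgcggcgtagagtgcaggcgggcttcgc
The Wnt2b promoter holds 1 CCAAT box and 4 GC boxes and that of Fzd4 holds 1 CCAAT box and 8 GC boxes, while that of Rspo1 holds none of the 5 motifs searched. The other motifs, read on both strands, were the TCF/LEF site CTTTGAT, the nuclear receptor core site with the letters AGGTCA, and the TATA box with the letters TATAAA. Of the 47 genes, 29 had a promoter in the table, 32 promoters in all. The GC box was in 24 of these 32 (75.0%), against 35.7% of all 32851 promoters in the table, and their median GC content was 69.5% against 52.7%. CTTTGAT was in 2 (6.25%, against 3.73%), AGGTCA in 2 (6.25%, against 16.3%), TATAAA in 5 (15.6%, against 13.6%) and CCAAT in 11 (34.4%, against 37.4%). These matches describe the letters of the windows and were not tied to the signals.

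Apart from Wnt2b, the signals of the ligands differed little between diabetic and control fat. Over all 18 arrays the mean signals of these other ligands ran from 4.49 (Wnt1) to 7.77 (Wnt4), with 6.40 for Wnt10b. The arrays come with no background level. For dim ligands, an unchanged amount cannot be told from a signal too low to show a change. The same holds for dim genes of other roles, such as Wif1 (mean 5.83), Rspo4 (5.81) and Rspo2 (5.44). Of the 19 ligands, 15 had a negative difference, and the lowest was -0.22 (95% interval -0.56 to 0.12), for Wnt5a, a ligand of noncanonical signalling. The count of negative ligands was 18 with array medians set equal and 14 after quantile normalization, and 11232 of the 19938 genes were negative. Wnt10b, the canonical ligand best known as an inhibitor of adipocyte formation, was 6.47 ± 0.22 in Con, SD and 6.37 ± 0.10 in STZ, SD (difference -0.10, 95% interval -0.31 to 0.10, adjusted p = 0.600). Wnt2 had the second lowest adjusted p among the ligands (difference -0.19, adjusted p = 0.232).

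Among the other Frizzled receptors, Fzd6 (0.25) and Fzd1 (0.25) had the largest differences, and neither was called (adjusted p = 0.519 and 0.396). Of the 10 Frizzled receptors, 6 had a positive and 4 a negative difference, which became 4 and 6 with array medians set equal. The co-receptors Lrp5 (-0.26, adjusted p = 0.301) and Lrp6 (0.01, adjusted p = 0.980) were not called. Lrp5 was 8.47 to 9.61 in STZ, SD and 9.36 to 9.57 in Con, SD. The lowest value was that of STZ, SD replicate 6, without which the Lrp5 difference was -0.11 (adjusted p = 0.466).

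The antagonists that bind Wnt went in different directions, and none was called in STZ, SD vs. Con, SD. Sfrp4, an antagonist known to be made by fat tissue, had the lowest adjusted p (difference -0.65, SE 0.24, adjusted p = 0.128). It was 6.98 to 8.58 in Con, SD (median 7.58) and 6.75 to 7.61 in STZ, SD (median 7.03), and all 6 diabetic mice were below the control mean. Without the 3 arrays with epididymis signal it was called (difference -0.87, adjusted p = 0.0327), as it was without Con, SD replicate 3 or 5 or STZ, SD replicate 5. Frzb, also called sFRP3, differed by 0.65 (SE 0.28, adjusted p = 0.197), with STZ, SD replicate 4 highest at 7.53 and replicate 2 next at 6.59. Sfrp1, which is known to favour adipocyte formation, was 9.26 to 9.65 in 5 diabetic mice and 7.28 in replicate 6, against 8.17 to 9.37 in Con, SD. Its difference was 0.30 (adjusted p = 0.649) over all arrays and 0.66 (adjusted p = 0.0640) without the 5 arrays with pancreas signal. Sfrp2 (-0.02) and Wif1 (-0.15) were not called.

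Axin2, the usual read-out of β-catenin activity, was not called. It was 7.49 to 7.81 in Con, SD, and in STZ, SD it was 8.42, 8.16 and 8.06 in replicates 5, 3 and 4 but 7.51, 7.45 and 7.20 in replicates 1, 2 and 6. The diabetic mice thus lay on both sides of the controls, and the difference was 0.15 (95% interval -0.19 to 0.49, adjusted p = 0.661). Porcn, the enzyme that attaches the lipid to Wnt proteins, differed by -0.06 (95% interval -0.24 to 0.12). Fzd10os differed by -0.10 (adjusted p = 0.638).

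**Figure D3:**
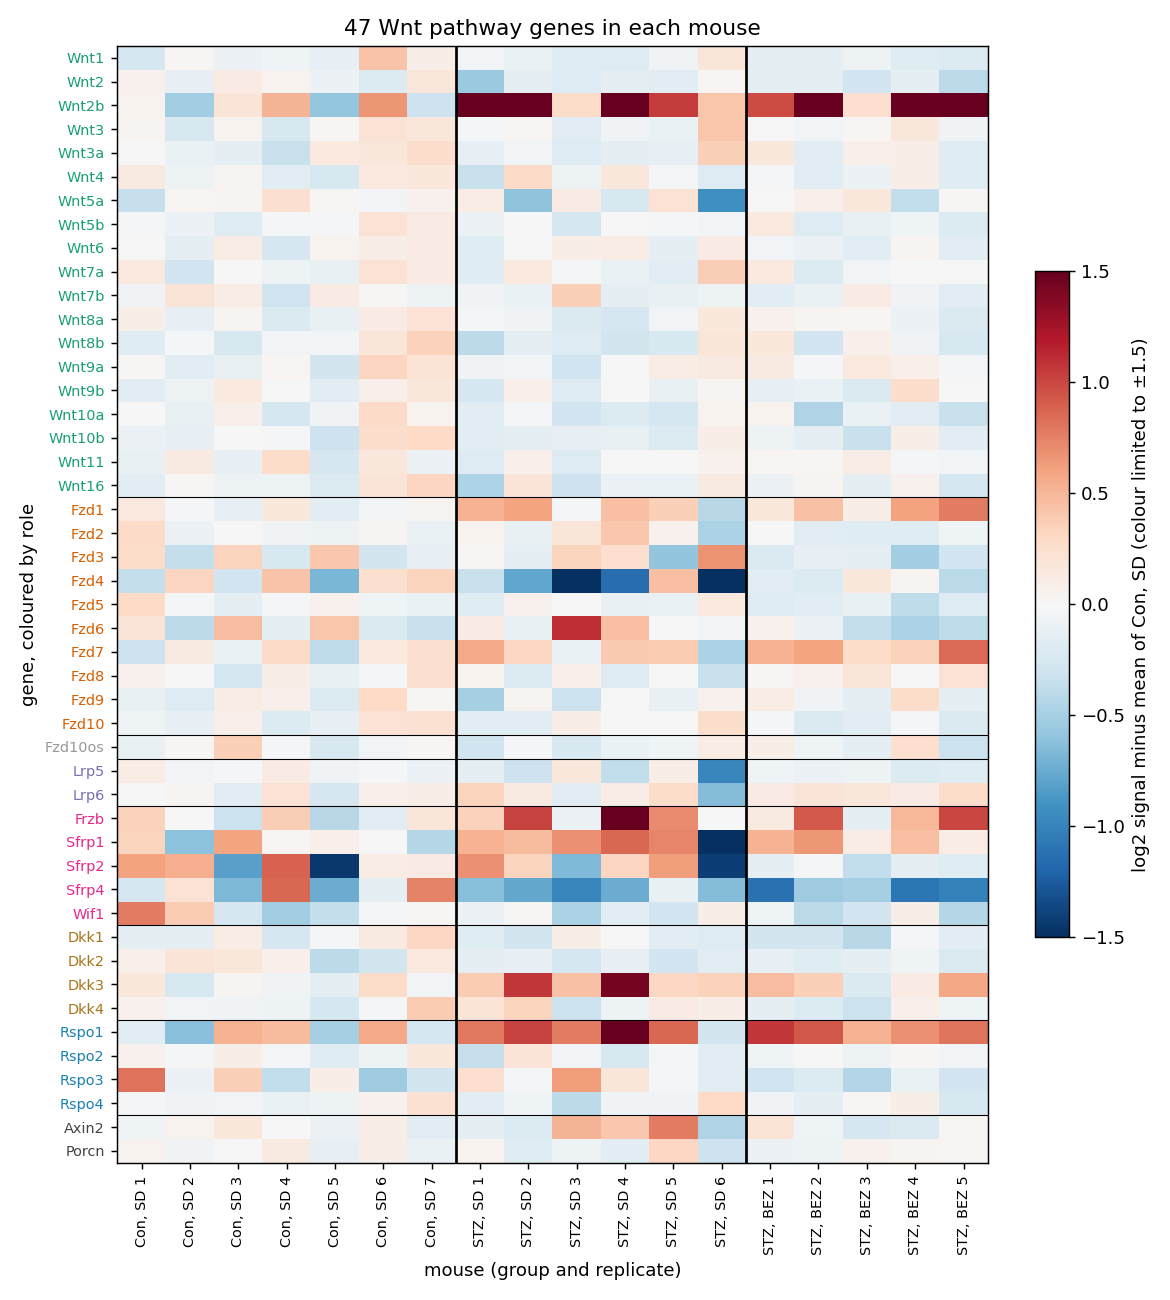
Log2 signal minus the mean of Con, SD (colour, limited to ±1.5) for the 47 genes (rows, labels coloured by role) in each of the 18 mice (columns). Wnt2b and Rspo1 are red in nearly all STZ mice, Fzd4 is blue in STZ, SD replicates 2, 3, 4 and 6, and most Wnt ligands are pale throughout.

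In STZ, BEZ vs. STZ, SD, the comparison that asks what BEZ does in diabetic fat, none of the 47 genes was called by limma, and SAM, the test that the study used for its arrays, called none either. Over all genes 0.707% were called by limma (0.682% higher and 0.0251% lower). At an unadjusted p under 0.05 there were 4 of the 47, all of them Frizzled receptors, against 10.2% of all genes. No gene of the 47 had groups without overlap, against 1.49% of all genes. Both comparisons use the same STZ, SD arrays, so their differences are not independent of each other.

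Fzd4 differed by 0.80 (SE 0.34, 95% interval 0.07 to 1.52, adjusted p = 0.427), and all 5 STZ, BEZ mice, at 10.70 to 11.25, were above the STZ, SD mean. Without STZ, SD replicate 5 it was called (adjusted p = 0.0959), and without the arrays with pancreas signal, which leaves 1 STZ, BEZ array, the difference was 0.26 (adjusted p = 1.000). Fzd6 differed by -0.50 (8.19 ± 0.23 against 8.69 ± 0.46, adjusted p = 0.414), and all 5 STZ, BEZ mice were below the STZ, SD mean. Its difference was -0.70 (adjusted p = 1.000) without the arrays with pancreas signal. Fzd5 (-0.18, adjusted p = 0.481) and Fzd8 (0.20, adjusted p = 0.487) made up the 4. Fzd7 (0.34) and Fzd3 (-0.35) had adjusted p-values of 0.550 and 0.584.

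Over all arrays, the means of Wnt2b and Rspo1 in both diabetic groups lay close together. The difference was -0.01 for Wnt2b (95% interval -0.80 to 0.78, adjusted p = 0.996) and -0.002 for Rspo1 (95% interval -0.60 to 0.59, adjusted p = 0.9998). The intervals leave room for differences of either sign within these bounds. Dkk3 differed by -0.40 (6.60 ± 0.32 against 7.01 ± 0.47, adjusted p = 0.495), and all 5 STZ, BEZ mice were below the STZ, SD mean. These differences moved when the organ signal was taken into account, and none of the 3 genes was called. Without the arrays with pancreas signal they were 0.57 for Wnt2b, -0.21 for Rspo1 and -0.15 for Dkk3 (adjusted p = 1.000 for each). With the pancreas, epididymis and muscle list means as covariates they were 0.25 (adjusted p = 0.788), 0.31 (adjusted p = 0.613) and -0.29 (adjusted p = 0.515). Rspo3 differed by -0.41 (adjusted p = 0.501). Among ligands the largest differences were 0.20 for Wnt5a (adjusted p = 0.782) and 0.11 for Wnt8b (adjusted p = 0.834). Sfrp4 (-0.20), Frzb (-0.17), Dkk4 (-0.19), Lrp6 (0.17), Lrp5 (0.13), Axin2 (-0.21) and Porcn (0.05) had adjusted p-values between 0.641 and 0.909.

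In STZ, BEZ vs. Con, SD, 1 gene rose and 1 fell, 4.26% of the 47 against 5.95% of all genes (4.57% higher and 1.38% lower). Wnt2b was 1.24 higher than in Con, SD (8.86 ± 0.66, n = 5, SE 0.36, limma adjusted p = 0.0724), with 4 of 5 mice above every control and replicate 3, at 7.87, within the control range. Sfrp4 fell by 0.85 (7.73 ± 0.64 to 6.88 ± 0.31, SE 0.26, 95% interval -1.39 to -0.31, limma adjusted p = 0.0814). It was 6.60, 7.19, 7.23, 6.64 and 6.71 in STZ, BEZ, so that replicates 1, 4 and 5 lay below every control. Wnt2b was called in 10 and Sfrp4 in 11 of the 18 fits with 1 array left out. Without Con, SD replicate 2 or 7 or STZ, BEZ replicate 1, 2, 4 or 5 neither was called, Wnt2b was not called without Con, SD replicate 1 or 5, and Sfrp4 was not called without Con, SD replicate 4. The highest adjusted p came without STZ, BEZ replicate 5, at 0.223 for Wnt2b and 0.206 for Sfrp4. Without the arrays with pancreas signal neither was called (2.00, adjusted p = 0.207, and -1.01, adjusted p = 0.495). The lone STZ, BEZ array left is assumed to vary like the other groups. Without the arrays with epididymis signal Sfrp4 was called (-1.13, adjusted p = 0.0217) and Wnt2b was not (1.16, adjusted p = 0.131). Rspo1 (0.80, adjusted p = 0.123), Fzd7 (0.52, adjusted p = 0.113), Fzd1 (0.41, adjusted p = 0.166) and Fzd5 (-0.21, adjusted p = 0.173) were not called, and no gene of the 47 had groups without overlap, against 6.8% of all genes.

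Signals of several of these genes moved across mice with those of cell types within the tissue. In whole fat, fewer cells of a type and less RNA per cell cannot be told apart. STZ, SD replicate 6, with a pancreas list mean of 12.89, had the lowest white adipocyte list mean (10.10), Fzd4 (8.91) and Lrp6 (8.80) of all arrays. In STZ, BEZ replicates 1 to 4, which also carried pancreas signal, the white adipocyte list mean was 12.29 or higher. Whether RNA of other organs lowered signals of the fat was not tested. Each of the 47 genes was set against the means of 8 marker lists, 376 relations over 18 arrays, and p-values are from 100000 permutations with the Benjamini-Hochberg adjustment over all 376. In 25 of them the adjusted p of Pearson's r was under 0.05. The relations given here are a selection of these 25. Values were permuted over all 18 arrays regardless of group, so a group difference shared by gene and list enters these p-values. For r of deviations from group means no p-value was computed.

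Fzd4 followed the white adipocyte list most closely. Pearson's r was 0.951 and Spearman's rho 0.948 (adjusted p = 0.00376 and 0.00188; both unadjusted p-values were 1e-05, the smallest the permutations can give). Without the 2 arrays farthest from the median, STZ, SD replicates 4 and 6, r was 0.939, and it was 0.933 for deviations from group means. Fzd4 also moved with the macrophage list (r = 0.817, rho = 0.820, adjusted p = 0.00376 and 0.00501). When STZ, SD replicates 3 and 6 were left out, this r was 0.661, and it was 0.819 for deviations from group means. The white adipocyte list mean spanned 11.86 to 12.54 in the controls, 10.10 to 12.45 under STZ, SD and 12.16 to 12.44 under STZ, BEZ. In STZ, SD vs. Con, SD all 12 of its genes had a negative difference, and Lep (leptin) and Dgat2 were called. These genes had by far the largest falls, -3.83 for Lep and -1.66 for Dgat2. The others ran from -0.66 (Cidec) to -0.04 (Fabp4), with Adipoq at -0.10, so the list mean does not measure adipocyte content alone. All 12 had a positive difference in STZ, BEZ vs. STZ, SD, and none was called, with 11 at an unadjusted p under 0.05. With the list mean as a covariate, a fit chosen after seeing the data, the Fzd4 difference was -0.14 (SE 0.14, adjusted p = 0.592) in STZ, SD vs. Con, SD and -0.03 (adjusted p = 0.997) in STZ, BEZ vs. STZ, SD. In the same fit 6 of the 47 genes were called in STZ, SD vs. Con, SD, against 11% of all genes. Wnt2b and Rspo1 were still among them (1.46, adjusted p = 0.0450, and 1.08, adjusted p = 0.0382), whereas Dkk3 was not (0.61, adjusted p = 0.103). The others were Fzd1 (0.46, adjusted p = 0.0857), Fzd7 (0.49, adjusted p = 0.0445), Lrp6 (0.29, adjusted p = 0.0455) and Wnt2 (-0.30, adjusted p = 0.0796).

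Rspo1, Wnt2b, Sfrp1 and Dkk3 moved with the mesothelium list, the genes of the cell layer that covers visceral fat. Pearson's r and Spearman's rho were 0.804 and 0.825 for Rspo1 (adjusted p = 0.00564 for both) and 0.768 and 0.742 for Wnt2b (adjusted p = 0.00846 and 0.0315). They were 0.744 and 0.792 for Sfrp1 (adjusted p = 0.0162 and 0.00978) and 0.694 and 0.709 for Dkk3 (adjusted p = 0.0317 and 0.0443). All 4 relations were positive in each form computed. When Con, SD replicate 7 and STZ, SD replicate 4 were left out, r was 0.746, 0.688, 0.743 and 0.589 in the same order, and for deviations from group means it was 0.747, 0.701, 0.730 and 0.617. The mesothelium list mean spanned 7.82 to 9.03 in the controls, 8.26 to 9.54 under STZ, SD and 8.39 to 9.11 under STZ, BEZ. All 10 of its genes had a positive difference in STZ, SD vs. Con, SD and none was called. Wt1, a mesothelial transcription factor, differed by 0.77 (adjusted p = 0.163), and Msln (mesothelin) by 0.07 (adjusted p = 0.902). In STZ, BEZ vs. STZ, SD the list did not move as 1: 7 genes had a positive difference and 3 a negative one, with none called. The 3 were the keratins Krt18 (-1.15), Krt8 (-0.91) and Krt19 (-0.40). With this list mean as a covariate, also chosen after seeing the data, the differences in STZ, SD vs. Con, SD were 0.75 for Wnt2b (SE 0.29, adjusted p = 0.202), 0.40 for Rspo1 (SE 0.20, adjusted p = 0.347) and 0.43 for Dkk3 (SE 0.16, adjusted p = 0.193), and none of the 47 genes was called. Calls also became fewer among all genes in that fit, 2.86% against 10.3% without the covariate.

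**Figure D4:**
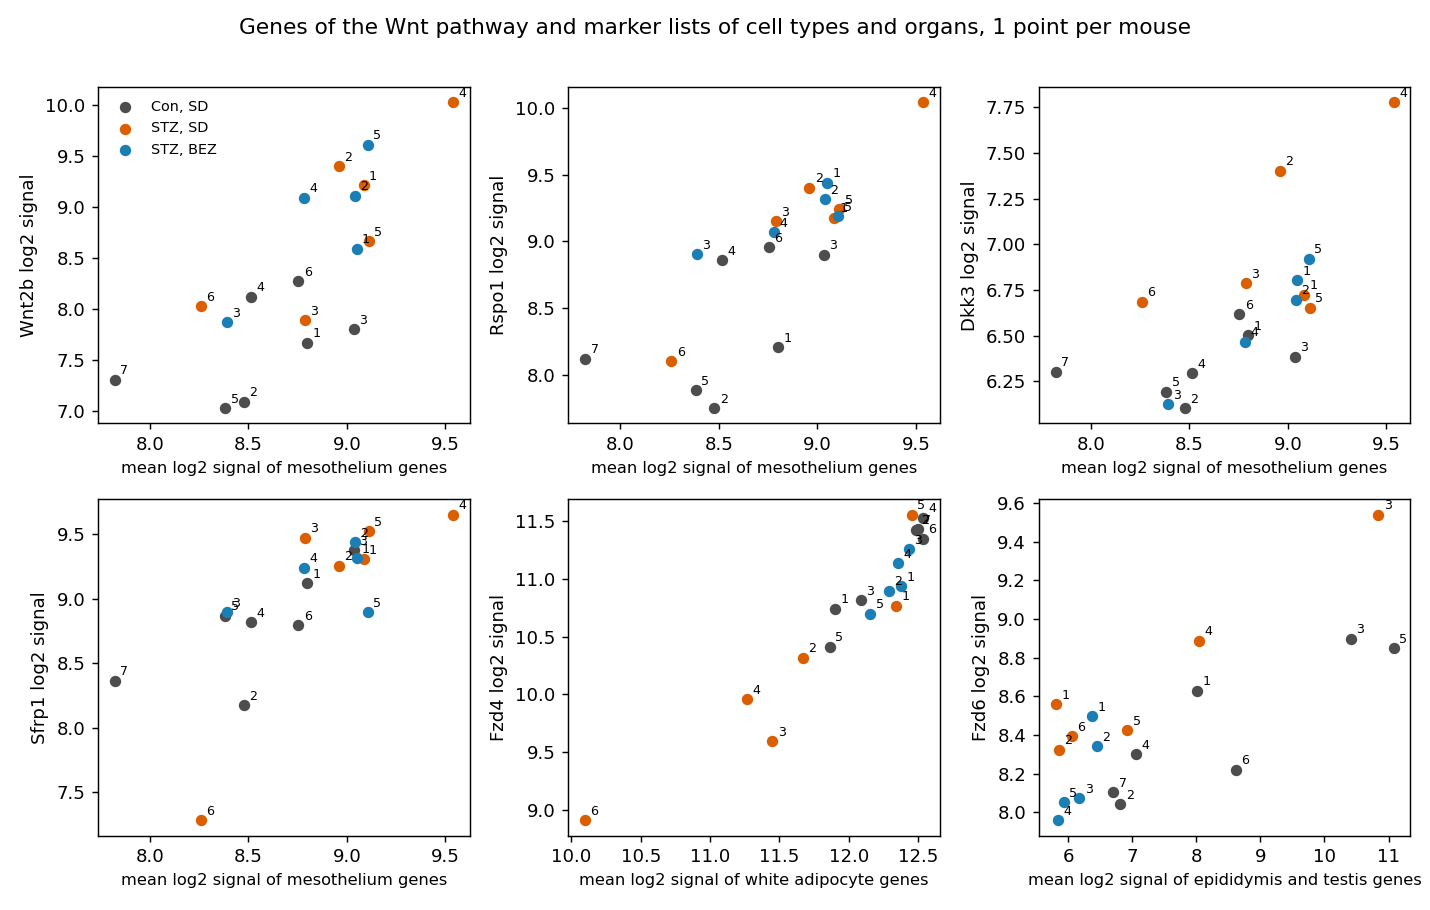
Log2 signal of 6 genes (y axes) against the mean log2 signal of a marker list (x axes), 1 point per mouse, coloured by group and numbered by replicate. Fzd4 lies close to a line with the white adipocyte list from STZ, SD replicate 6 at the lower left upwards, and Wnt2b, Rspo1, Dkk3 and Sfrp1 rise with the mesothelium list with more scatter.

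Sfrp2, a marker of fibroblast-like cells in many tissues, moved with the progenitor and fibroblast list of 12 genes (r = 0.821, rho = 0.876, adjusted p = 0.00376 and 0.00188). When Con, SD replicate 4 and STZ, SD replicate 5 were left out, r was 0.799, and it was 0.826 for deviations from group means. This list mean spanned 9.30 to 9.91 in the controls, 9.15 to 9.82 under STZ, SD and 9.38 to 9.48 under STZ, BEZ. Sfrp2 was not particular to this list, since it also moved with the endothelium list (r = 0.741, rho = 0.767, permutation adjusted p = 0.0196 and 0.0207). Fzd6 was 8.90, 8.85 and 9.54 on the 3 arrays with epididymis signal and 7.96 to 8.89 on the other arrays. Its difference in STZ, BEZ vs. STZ, SD was -0.33 (adjusted p = 0.426) without these 3 arrays. Fzd3, a receptor that was not called in any comparison, ran against the endothelium (r = -0.794), macrophage (r = -0.780) and white adipocyte lists (r = -0.774), with adjusted p-values of 0.00846, 0.00815 and 0.00752 and rho of -0.713, -0.717 and -0.705 (adjusted p = 0.0438, 0.0421 and 0.0443). Without the 2 farthest arrays of each list its r was -0.783, -0.664 and -0.676, and for deviations from group means it was -0.791, -0.771 and -0.816. Lrp6 moved with the endothelium list (r = 0.800, rho = 0.738, adjusted p = 0.00923 and 0.0347), with r = 0.828 when Con, SD replicate 5 and STZ, SD replicate 3 were left out and r = 0.785 for deviations from group means. Pearson's r of Lrp6 also passed for the macrophage (0.694), white adipocyte (0.765) and progenitor and fibroblast lists (0.660), with permutation adjusted p = 0.0213, 0.0393 and 0.0436. Spearman's rho did not pass for these lists (adjusted p = 0.196, 0.358 and 0.17). For deviations from group means r was 0.706, 0.887 and 0.805 in the same order. Wif1 correlated with the skeletal muscle list (r = 0.729, rho = 0.401, adjusted p = 0.0315 and 0.358), which rests on Con, SD replicates 1 and 2, since r was 0.202 without them. With the pancreas, epididymis and muscle means as covariates together, Wnt2b, Rspo1, Dkk3 and Fzd4 kept their directions in STZ, SD vs. Con, SD (0.99, 0.78, 0.61 and -0.89) with adjusted p-values of 0.176 to 0.217. Fzd6 (0.58, adjusted p = 0.0454), Rspo3 (0.80, adjusted p = 0.0365) and Sfrp4 (-0.97, adjusted p = 0.0783) were called in that fit. These were 3 of the 47 genes, against 10.2% of all genes in the same fit.

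Further genes of the pathway, from 4 lists outside the family described, were read from the same fit. The shares called among all genes, 10.3% in STZ, SD vs. Con, SD, 0.707% in STZ, BEZ vs. STZ, SD and 5.95% in STZ, BEZ vs. Con, SD, are the background of each count. Of 27 other proteins at the cell surface or outside it, 1 rose and 1 fell in STZ, SD vs. Con, SD (7.41%). Trabd2b, a membrane protease that cleaves Wnt ligands, fell by 1.45 (9.36 to 7.91, SE 0.31, limma adjusted p = 0.0146) and was also lower in STZ, BEZ than in Con, SD (-1.28, adjusted p = 0.0402). Gpc3, a glypican that binds Wnt, rose by 0.81 (9.21 to 10.02, adjusted p = 0.0301) and was higher in STZ, BEZ as well (0.74, adjusted p = 0.0702). These were the called genes of that list in both comparisons with Con, SD. None of the 27 was called in STZ, BEZ vs. STZ, SD, where Apcdd1 (0.97, adjusted p = 0.324), a membrane inhibitor of Wnt signalling, and Tspan12 (0.98, adjusted p = 0.394), a tetraspanin that works with Fzd4, had the lowest p-values.

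Of 31 intracellular genes, none was called in STZ, SD vs. Con, SD or in STZ, BEZ vs. STZ, SD, with 5 and 2 at an unadjusted p under 0.05. With STZ the lowest p-values were those of Ctnnbip1, an inhibitor of β-catenin (-0.47, limma adjusted p = 0.125), and Csnk1g1 (0.15, adjusted p = 0.151). With BEZ they were those of Csnk1g1 (-0.24, limma adjusted p = 0.153) and Ctnnb1, β-catenin itself (-0.22, adjusted p = 0.324). Tcf7l2, a transcription factor that binds β-catenin, rose by 0.78 in STZ, BEZ vs. Con, SD (8.80 to 9.58, adjusted p = 0.0400), and Tle3, a co-repressor of TCF factors, fell by 0.40 (adjusted p = 0.0678). Of 17 feedback and target genes, 1 was called in STZ, SD vs. Con, SD, namely Myc, which rose by 1.08 (7.82 to 8.89, adjusted p = 0.0207). None was called in STZ, BEZ vs. STZ, SD, with 1 at an unadjusted p under 0.05. The lowest p-values there were those of Apcdd1, given above, and Ccnd1 (-0.44, limma adjusted p = 0.613). Compared with Con, SD, Myc was also higher in STZ, BEZ (0.93, adjusted p = 0.0646), and Ccnd1, cyclin D1, fell by 1.04 (adjusted p = 0.0330). Both genes answer to many other signals. Of 22 genes of planar polarity and calcium signalling, 1 was called in each comparison with Con, SD and none in STZ, BEZ vs. STZ, SD. This was Nlk, a kinase that acts on TCF/LEF factors, which fell by 0.32 in STZ, SD (adjusted p = 0.0266) and by 0.34 in STZ, BEZ (adjusted p = 0.0383). In STZ, BEZ vs. STZ, SD, Nfatc3 (0.22, limma adjusted p = 0.331) and Prickle1 (-0.19, adjusted p = 0.531) had the lowest p-values. The median difference of each of these lists lay between -0.04 and 0.01 in STZ, SD vs. Con, SD, beside -0.03 over all genes, and between -0.15 and 0.04 in STZ, BEZ vs. STZ, SD, beside 0.01.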

How the data were processed

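Visceral fat RNA of 18 mice (7 Con, SD, 6 STZ, SD and 5 STZ, BEZ, as GEO's labels group them) was measured on Affymetrix arrays. The deposited values are log2 signals that the authors made, per the labels' processing notes, by RMA in Affymetrix Expression Console 1.2. All 18 columns matched a sample. Of 35556 probe sets, 21789 carried 1 gene symbol, 1621 several and 12146 no name here. Each of the 19938 symbols was represented by its brightest probe set on average; the Entrez IDs of 19856 symbols and of all 47 genes described are in the RefSeq table. The arrays come with no background level, so no filter on dim genes was used, and precision rests on the number of arrays.

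A single model of 3 group means was fitted with limma 3.58.1 (R 4.3.3; 15 residual degrees of freedom), with Benjamini-Hochberg adjustment over all symbols and calls at an adjusted p under 0.10, the 10% rate that the study used with SAM. The script was tested on simulated data. Genes and lists were chosen with earlier results of these data known. Genes were named if called in any comparison, if among the 2 largest differences of their role, or if Wnt10b, Wnt5a, Sfrp1, Axin2 or Porcn; of the other pathway lists, called genes or the 2 with the lowest p were named. The marker lists cover white adipocytes, progenitors and fibroblasts, mesothelium, endothelium, macrophages, pancreas, epididymis and testis, and skeletal muscle. Endothelium and macrophage list means ranged from 8.71 to 10.08 and from 9.14 to 10.38 over all arrays. Permutation tests were two-sided (seed 1).

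Alternatives were a threshold of 0.05, all probe sets, the mean of a symbol's probe sets, a minimum mean of 6, quantile normalization, equal array medians, a variance trend with robust fit, array weights, fits of 2 groups, SAM (100 permutations), replicate blocks, organ list means as covariates, a fit without the 5 arrays with a pancreas list mean over 8, and each array left out. Covariates for mesothelium or white adipocytes and a fit without the 3 arrays with an epididymis list mean over 10 were added after the data were seen.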

Additional observations from a re-analysis of the deposited data

Results flagged for a closer look

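In 7 of 141 groups of values (47 genes in 3 groups of mice), 1 mouse stood apart from the rest of its group by Dixon's criterion, which chance alone meets in about 1 in 20 groups. In 4 of the 7 it was STZ, SD replicate 6, whose pancreas list mean was 12.89. In that mouse Sfrp1 was 7.28 (the other 5 mice 9.26 to 9.65), Wnt10b 6.56 (6.26 to 6.36), Wnt3 5.87 (5.28 to 5.48) and Wnt3a 6.37 (5.81 to 5.97). In STZ, SD replicate 3, whose epididymis list mean was 10.84, Wnt5b was 6.81 (the others 6.98 to 7.06) and Wnt7b 7.14 (6.65 to 6.74). In Con, SD replicate 1 Fzd2 was 7.99 (the others 7.60 to 7.74).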

How the results depend on the processing

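No called difference of the 47 genes turned its sign under any alternative run. In STZ, SD vs. Con, SD the 4 called genes became 2 at an adjusted p under 0.05 and with the arrays of the 2 groups only, 8 with array weights (16.9% of all genes) and 0 with the mesothelium covariate (2.86%). Leaving out 1 array gave 1 to 5 (1 without STZ, SD replicate 2 or 4, 2 without Con, SD replicate 2 or 7). In STZ, BEZ vs. STZ, SD the count of 0 became 3 with the 3 organ lists as covariates (Fzd1 and Fzd7 higher, Wif1 lower; 11.7% of all genes), and leaving out 1 array gave 0 to 1 (Fzd4, without STZ, SD replicate 5). In STZ, BEZ vs. Con, SD the 2 called genes became 0 at an adjusted p under 0.05, without the 5 arrays with pancreas signal and with the mesothelium covariate. They became 1 with quantile normalization, with equal array medians and without the 3 arrays with epididymis signal, 4 of 33 with a minimum mean of 6 (10.2% of all genes), 5 with the 2 groups only (14.1%) and with the white adipocyte covariate (10.9%), 7 with the organ covariates (17.8%), and 9 with array weights (19.1%) and with SAM (23.1%). Leaving out 1 array gave 0 to 5: 0 without Con, SD replicate 2 or 7 or STZ, BEZ replicate 1, 2, 4 or 5, 1 without Con, SD replicate 1 or 5, and 5 without STZ, SD replicate 6. The causes were not tested.

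Replicate numbers did not pair mice: deviations of same-numbered arrays correlated at a median of -0.01 (16 pairs, -0.36 to 0.70), beside -0.01 for 91 other pairs, and 2 of 32 correlated best with their own number. With the replicate block 0 of the 47 genes were called in each comparison, and over all genes 444 rose and 236 fell in STZ, SD vs. Con, SD, beside 1161 and 902 without it.

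Over all genes in that comparison, 653 rose and 436 fell at an adjusted p under 0.05, 625 and 397 with the 2 groups only, 2041 and 1333 with array weights, and 2827 and 1437 over all probe sets. The share of all genes called ranged from 2.86% (mesothelium covariate) to 16.9% (array weights) in this comparison, from 0.01% (replicate block) to 11.7% (organ covariates) in STZ, BEZ vs. STZ, SD, and from 1.4% (without the 5 arrays) to 23.1% (SAM) in STZ, BEZ vs. Con, SD.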
